A study of Mus musculus with 12 samples.

Results

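Long noncoding RNAs (lncRNAs) of mouse liver were followed in the intragastric model of alcohol-associated steatohepatitis (ASH), and 151 of them were expressed highly enough to be described. They were selected on their annotation and their level. Each is a gene of GENCODE release M21 with the biotype lincRNA (an intergenic transcript) or antisense (a transcript on the strand opposite another gene), lies on an autosome, and averaged at least 2 CPM over the 12 livers, where CPM is the count scaled by the library's total. Of 54232 gene IDs in the deposited table, 7608 were candidates of these biotypes, 3268 had at least 1 count, and 151 reached the level. The members comprised 91 lincRNAs and 60 antisense RNAs.

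Whole liver RNA came from male C57BL6/J mice, whose labels give an age of 8-week. The 5 pair-fed (PF) mice received an isocaloric high-fat liquid diet for 8 weeks. The 7 alcohol-fed (AF) mice received a high-fat liquid diet with ethanol, whose dose was raised during this time until it reached 27 g/kg/day. Binges of 5 g/kg were added each week, starting later than the liquid diet did. According to the study's methods, the regimen opens with either chow or a solid Western diet rich in cholesterol, the Western diet is also eaten later on, and the liquid diet is given through an intragastric tube. Which of these mice began on chow is not given in the sources used here. The labels number the livers of each group as replicates, so p-values measure the spread between these livers.

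LncRNAs are transcribed and often spliced like messenger RNAs but are not known to encode a conserved protein. Some act in the nucleus as scaffolds, some carry small nucleolar RNAs (snoRNAs) or microRNAs in their introns or exons, some work through the act of transcription beside a coding gene, and for most no function is known. Many are restricted to a single tissue, and several liver-enriched lncRNAs have been linked to lipid metabolism. Since many are named or studied by the gene beside them, each member is given with its nearest protein-coding gene.

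The PF libraries held 24129900 to 28594027 counts, those of AF livers 25099033 to 30578639. Summed over a group, the smallest member total was 95 counts for PF and 70 for AF. Fold changes are log2 ratios of AF over PF after TMM scaling, a normalization that assumes most genes do not change, and a member is called higher or lower where the Benjamini-Hochberg adjusted p of edgeR's quasi-likelihood test over all 14168 genes tested is under 0.05. TMM factors were 0.832 to 0.901 for PF livers and 0.880 to 1.36 for AF livers. Scaling to library totals instead shifted the fold changes of all genes up by a median of 0.36 on the log2 scale. Markers of other cells moved with the groups. Of the markers tested, 4 of 8 hepatocyte markers were lower in AF (summed level 88530.3 to 118426 CPM in PF and 66826 to 97268 CPM in AF livers), while 7 of 8 macrophage markers (594 to 990.3 against 1095 to 4062 CPM), 7 of 8 stellate cell and fibroblast markers (145 to 375 against 330 to 1381 CPM) and 4 of 5 bile duct markers (41.3 to 214 against 67.5 to 1488 CPM) were higher. The hepatocyte sum is mostly Alb (mean 77648.9 CPM in PF and 64071.5 CPM in AF). That of bile duct is mostly Spp1 (mean 109.6 and 495.7 CPM). Neither was called by edgeR, so these sums do not show the called markers. Of the other lists, 1 of 6 endothelial markers was higher (110 to 258 against 240 to 320.2 CPM), and 1 of 8 lymphocyte markers (6.39 to 13.2 against 3.57 to 8.34 CPM) and 1 of 5 red blood cell markers (115 to 153 against 40.9 to 187 CPM) were lower. The 7 neutrophil markers were not called by edgeR (44.7 to 659.6 against 55.0 to 218 CPM), with 2 lower at an unadjusted p under 0.05 and 1 higher by limma-voom. DESeq2 and limma-voom called 6 and 7 hepatocyte markers lower, DESeq2 called 6 bile duct markers higher, and limma-voom called 4 lymphocyte markers lower. For red blood cells the median log2 fold change was 0.84, and 3 markers were higher by edgeR at an unadjusted p under 0.05. No marker averaged 0 counts in either group, and the part of these lists in the lncRNA results was not tested. In whole liver, fewer cells of a type and less RNA per cell cannot be told apart.

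In AF livers 16 members were higher (10.6%), 51 were lower (33.8%) and 84 were not called. Among all genes tested, 22% were higher and 17.8% were lower, and among protein-coding genes 23.1% were higher and 17.3% were lower. The median log2 fold change was -0.32 over the 151 members, against 0.04 over all 14168 genes. With library totals the counts of members were 36 higher (23.8%, against 45.5% of all genes) and 35 lower (23.2%, against 6.63% of all genes), and the median was 0.04, against 0.40 over all genes. All 16 members called higher were also higher on library totals. Of the 51 called lower, 35 remained lower and 16 were not called. Overlap between groups is given in CPM on library totals unless stated. On that scale, every AF liver lay above every PF liver for 14 members (9.27%, against 17.6% of all genes), and every AF liver lay below every PF liver for 21 (13.9%, against 3.56% of all genes). After TMM scaling this was so for 7 and 33 members, and the share of all genes was not counted on that scale.

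**Figure D1:**
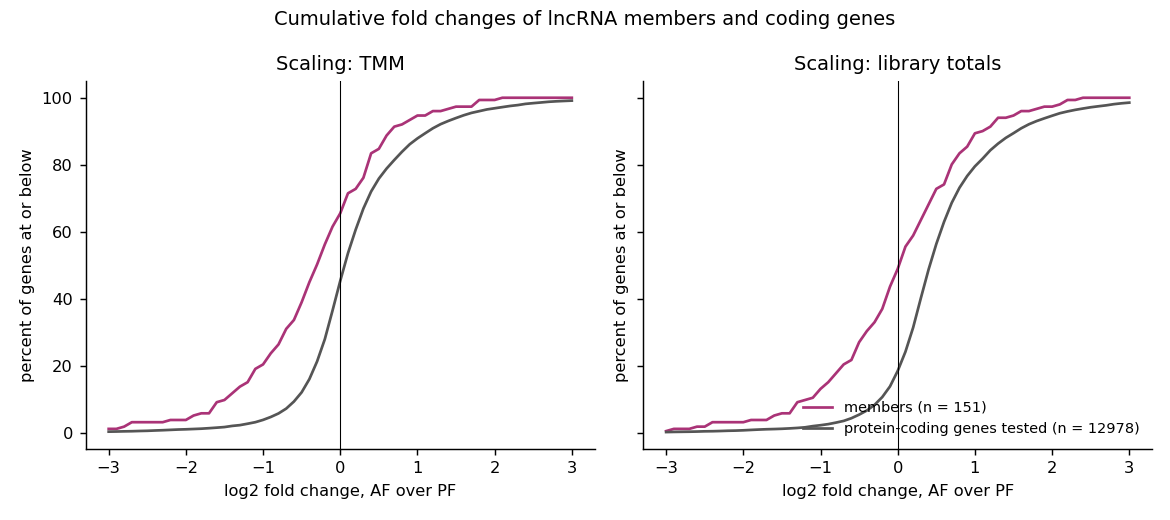
Cumulative percent of genes (vertical axis) at or below each log2 fold change of AF over PF (horizontal axis) for the 151 members and the 12978 protein-coding genes tested, with TMM scaling on the left and library totals on the right. At a log2 fold change of 0 the curve of the members stands at 65.6% with TMM and 49.01% on library totals, and that of the coding genes at 45.4% and 18.6%.

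The rule on level favours members that are high in either group. A mean of at least 2 CPM was reached in both groups by 118 members, in AF alone by 22 and in PF alone by 11. Those that pass through a single group had to be higher in it, and their calls are given apart: 7 of the 22 were among the higher members and 9 of the 11 among the lower ones. Of the 118 expressed in both groups, 9 were higher (7.63%) and 42 were lower (35.6%). The last members inside the limit were Gm9917 (2.01 CPM), Kcnq1ot1 (2.01 CPM) and Gm34777 (2.00 CPM), and the first outside were 4930480K23Rik (1.98 CPM), Epb41l4aos (1.96 CPM) and Gm30784 (1.95 CPM).

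Levels covered a wide range. Mean CPM ran from 2.00 to 2488 with a median of 4.85, and 79 members lay between 2 and 5 CPM. Exonic length ran from 394 to 93147 bases with a median of 2463. Together the members took 0.408 to 0.578% of the counts of PF libraries and 0.469 to 0.631% of AF libraries. Without Gm42418, the most abundant of them, PF livers gave 0.240 to 0.261% and AF livers 0.268 to 0.331%, and these ranges do not overlap. These are shares of library totals. On that scale 45.5% of all genes were called higher, and every AF liver lay above every PF liver for 17.6% of all genes. AC160336.1, the next most abundant member, had a log2 fold change of 0.72 on library totals and was not called with TMM. The summed share therefore does not describe the typical member. RefSeq lists 123 of the members in the same place, 112 as lncRNA, 7 as protein-coding, 3 as pseudogene and 1 as transcribed pseudogene.

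**Figure D2:**
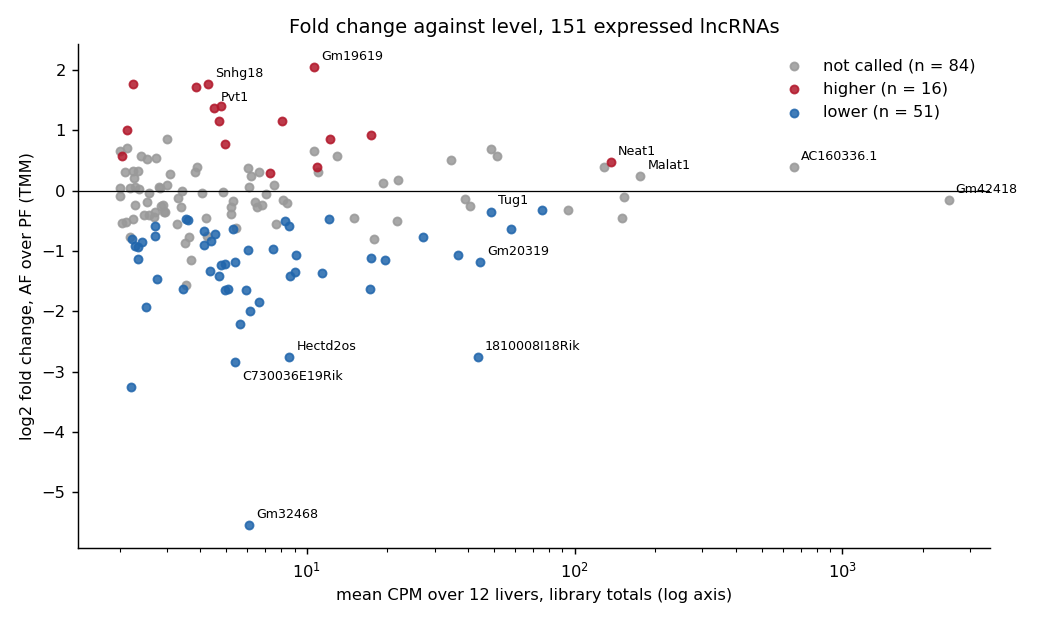
Log2 fold change of AF over PF after TMM scaling (vertical axis) against mean CPM over the 12 livers (horizontal log axis), 1 point for each of the 151 members, coloured by call. The lower members reach -5.55 (Gm32468) and the higher ones 2.05 (Gm19619), and of the 7 members over 100 CPM only Neat1 was called.

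Promoters are shown for 4 of the members that changed most, since their RefSeq start sites lie at or near the annotated gene starts. Gm19619 and Snhg18 were higher in AF livers, Gm32468 and C730036E19Rik were lower. Each sequence is the RefSeq promoter of build GRCm38.p6, 250 bases before to 50 bases after the start site, written 5′ to 3′ on the gene's strand, and capitals mark matches to the motifs searched. They lie at chr5:91283027-91283326, minus strand for Gm19619 (its RefSeq start is 345 bases from the GENCODE one), chr15:32244613-32244912, minus strand for Snhg18 (the same start), chr10:93083986-93084285, plus strand for Gm32468 (30 bases apart) and chr1:151137784-151138083, plus strand for C730036E19Rik (the same start).
Gm19619: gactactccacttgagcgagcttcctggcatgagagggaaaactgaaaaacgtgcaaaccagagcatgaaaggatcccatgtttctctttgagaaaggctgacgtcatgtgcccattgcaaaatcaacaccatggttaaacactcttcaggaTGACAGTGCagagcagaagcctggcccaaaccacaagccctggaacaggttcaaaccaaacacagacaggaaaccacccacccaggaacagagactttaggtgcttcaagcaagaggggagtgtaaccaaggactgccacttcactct
Snhg18: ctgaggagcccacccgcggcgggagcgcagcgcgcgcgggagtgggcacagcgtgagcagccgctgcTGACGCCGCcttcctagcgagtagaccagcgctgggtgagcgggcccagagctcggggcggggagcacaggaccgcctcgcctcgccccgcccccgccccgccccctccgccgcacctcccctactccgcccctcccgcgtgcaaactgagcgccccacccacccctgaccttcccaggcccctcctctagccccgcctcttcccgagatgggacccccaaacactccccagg
Gm32468: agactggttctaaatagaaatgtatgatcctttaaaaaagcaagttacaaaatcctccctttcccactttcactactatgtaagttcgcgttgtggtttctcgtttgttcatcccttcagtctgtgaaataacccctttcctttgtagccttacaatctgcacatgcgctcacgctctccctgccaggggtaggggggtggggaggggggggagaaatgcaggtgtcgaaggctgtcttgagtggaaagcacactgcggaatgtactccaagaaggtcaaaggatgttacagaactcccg
C730036E19Rik: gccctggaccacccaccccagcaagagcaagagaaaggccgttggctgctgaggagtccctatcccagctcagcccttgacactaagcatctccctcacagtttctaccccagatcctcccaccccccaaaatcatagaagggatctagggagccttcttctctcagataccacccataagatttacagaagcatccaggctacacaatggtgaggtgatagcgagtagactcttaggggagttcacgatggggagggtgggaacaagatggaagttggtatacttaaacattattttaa

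The capitals in the promoters of Gm19619 and Snhg18 are the core of the antioxidant response element, TGACNNNGC, whose first base is at -98 and -183 from the start site. No motif matched in the promoters of Gm32468 and C730036E19Rik. Both strands were also searched for the STAT motif TTCNNNGAA, the CHOP and ATF4 composite element TGATGNAA and the direct repeat DR1. DR1 was searched only as exact copies of AGGTCA in the same direction with a single base between them. For every motif only exact matches were counted, so the search does not show that imperfect sites are absent. The AP-1 motif was searched as TGANTCA, which shares its first letters with the antioxidant core. The E-box was searched as CACGTG. The TATA box was searched as the letters TATAAA. Of 97 members with a RefSeq promoter, 15 held TGACNNNGC (15.5%, against 12.4% of all 32817 promoters). The STAT motif stood in 7 of the 97 (7.22%, against 8.29%), AP-1 in 8 (8.25%, against 7.81%), the CHOP and ATF4 element in 5 (5.15%, against 3.97%), the E-box in 12 (12.4%, against 7.15%) and the TATA box in 14 (14.4%, against 13.6%). DR1 stood in none of them and in 0.0396% of all promoters.

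The 8 largest rises in AF livers included 4 in which the nearest coding gene, encoding a growth factor ligand, an axon guidance protein, a growth regulator or a glutathione S-transferase, rose as well. Over all higher members with a tested neighbour this held for 4 of 14 (28.6%, against 23.1% of coding genes). Gm19619 (ENSMUSG00000107198, chr5:91257571-91283421, minus strand, 6 exons) stood at 3.73, 1.94, 3.08, 3.95 and 3.01 CPM in the PF livers, and the lowest, median and highest of the 7 AF livers were 12.03, 15.5 and 22.5 CPM. Every AF liver was above every PF liver, and the level went from 3.14 ± 0.785 to 15.996 ± 3.93 CPM (mean ± SD over 5 PF and 7 AF livers, log2 fold change 2.05, standard error 0.273, edgeR adjusted p = 1.61e-04). Btc, which encodes betacellulin, a ligand of the epidermal growth factor receptor, lies 73840 bases away and was at 3.17 ± 0.747 CPM in PF and 11.5 ± 5.67 CPM in AF livers (SD, n = 5 and 7, log2 fold change 1.45, standard error 0.247, edgeR adjusted p = 8.35e-04).

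Snhg18 (ENSMUSG00000096956, chr15:32240565-32244662, minus strand, 2 exons) hosts the snoRNA Snord123. Its PF livers were at 0.829, 0.951, 1.99, 1.29 and 1.98 CPM and its AF livers at 2.52, 5.98 and 11.5 CPM (lowest, median, highest). The groups did not overlap, and the mean went from 1.41 ± 0.553 to 6.31 ± 2.82 CPM (mean ± SD over 5 PF and 7 AF livers, log2 fold change 1.76, standard error 0.285, edgeR adjusted p = 6.26e-04). Sema5a, a transmembrane semaphorin, starts 148 bases away in the other direction and was at 0.838 ± 0.340 CPM in PF and 5.56 ± 5.55 CPM in AF livers (SD, n = 5 and 7, log2 fold change 2.24, standard error 0.661, edgeR adjusted p = 0.0168). The SD of Sema5a in AF livers was about as large as its mean.

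Pvt1 (ENSMUSG00000097039, chr15:62037986-62378096, plus strand, 21 exons), a lncRNA studied for its closeness to the Myc oncogene, was at 2.24, 1.48, 1.84, 1.61 and 2.34 CPM in PF and at 3.93, 6.04 and 7.88 CPM (lowest, median, highest) in AF livers. All 7 AF livers exceeded all 5 PF livers, and the mean moved from 1.90 ± 0.377 to 6.34 ± 1.39 CPM (mean ± SD over 5 PF and 7 AF livers, log2 fold change 1.37, standard error 0.166, edgeR adjusted p = 8.22e-05). Myc, a transcription factor of growth genes, lies 47612 bases away and was at 2.77 ± 1.23 CPM in PF and 16.8 ± 15.02 CPM in AF livers (SD, n = 5 and 7, log2 fold change 2.16, standard error 0.415, edgeR adjusted p = 0.00169). The spread of Myc among AF livers was wider than that of Pvt1.

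Another pair that rose together overlaps on opposite strands. 4933431E20Rik (ENSMUSG00000086968, chr3:107888850-107896213, minus strand) was at 3.98, 2.36, 4.28, 4.58 and 3.84 CPM in PF and 4.65, 10.9 and 16.96 CPM (lowest, median, highest) in AF livers (log2 fold change 1.15, standard error 0.215, edgeR adjusted p = 0.00145). The lowest AF liver was only just above the highest PF liver. It lies opposite Gstm5, a glutathione S-transferase, which was at 12.2 ± 2.47 CPM in PF and 22.8 ± 7.29 CPM in AF livers (SD, n = 5 and 7, log2 fold change 0.53, standard error 0.181, edgeR adjusted p = 0.0335), and 16.7% of its exonic bases lie in exons of Gstm5 or Eps8l3.

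Among the other large rises no tested neighbour was called higher, and the neighbour of Mirt2 was not tested. Gm19705 (ENSMUSG00000097113, chr1:136670769-136690804, plus strand) was the least abundant of them, at 0.995, 0.380, 0.675, 0.874 and 0.713 CPM in PF and 1.38, 2.88 and 6.15 CPM (lowest, median, highest) in AF livers (log2 fold change 1.77, standard error 0.327, edgeR adjusted p = 0.00135). Its groups did not overlap, and the nearest coding gene, the zinc finger gene Zfp281 at 40716 bases, fell (log2 fold change -0.83, standard error 0.121, edgeR adjusted p = 3.14e-04). Gm46516 (ENSMUSG00000115200, chr15:55923402-55960906, plus strand) was at 2.90, 1.41, 1.43, 2.03 and 1.94 CPM in PF and 3.01, 5.74 and 11.2 CPM (lowest, median, highest) in AF livers (log2 fold change 1.40, standard error 0.273, edgeR adjusted p = 0.00182), without overlap in CPM but with overlap after TMM scaling, and Sntb1, a syntrophin 16453 bases away, was not called (log2 fold change -0.31, edgeR adjusted p = 0.0596).

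Mirt2 (ENSMUSG00000115946, chr15:76266461-76269839, minus strand), named as myocardial infarction associated transcript 2, was at 1.62, 1.52, 1.43, 0.979 and 1.43 CPM in PF and 3.89, 5.19 and 9.83 CPM (lowest, median, highest) in AF livers (log2 fold change 1.71, standard error 0.324, edgeR adjusted p = 0.00153). The groups did not overlap, and AF replicate 6 stood well above the other AF livers. Spatc1, on the opposite strand, averaged 0.0075 CPM in PF and 0.487 CPM in AF livers and had too few counts to be tested. Gm38416 (ENSMUSG00000110151, chr8:117681622-117693198, plus strand) was at 2.57, 2.24, 1.73, 1.54 and 2.73 CPM in PF and 2.23, 3.54 and 13.4 CPM (lowest, median, highest) in AF livers (log2 fold change 1.16, standard error 0.409, edgeR adjusted p = 0.0374). Its groups overlapped, and the call was lost when any of 8 single livers was left out (AF replicates 1, 4 and 5 and all 5 PF replicates), with a fold change between 0.87 without AF replicate 5 and 1.28 without AF replicate 3. Sdr42e1, a dehydrogenase family gene 7933 bases away, was not called (log2 fold change -0.34, edgeR adjusted p = 0.114).

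Gm19705, Snhg18, Mirt2, Gm46516 and Pvt1 averaged under 2 CPM in PF livers and entered the list through their AF level.

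The other 8 higher members, of which Bach2os and Gm30505 also averaged under 2 CPM in PF livers and entered through their AF level, changed less, from 0.30 for 5033406O09Rik to 1.00 for Bach2os on the log2 scale. Bach2os (log2 fold change 1.00, edgeR adjusted p = 0.0252) is antisense to the lymphocyte transcription factor Bach2, which was not called (log2 fold change -0.43, edgeR adjusted p = 0.109). Gm20400 (log2 fold change 0.93, edgeR adjusted p = 0.00324) lies opposite the organic anion transporter gene Slco1a6, which was not called either (log2 fold change 0.08, edgeR adjusted p = 0.867). AU020206 (log2 fold change 0.86, edgeR adjusted p = 0.0241) rose while Akap13, an anchoring protein of protein kinase A, fell (log2 fold change -0.49, edgeR adjusted p = 0.00104), and 1300002E11Rik (log2 fold change 0.39, edgeR adjusted p = 0.00768) rose while Map3k13, whose span it shares on the same strand, fell (log2 fold change -0.63, edgeR adjusted p = 0.00562). Gm4316 (log2 fold change 0.78, edgeR adjusted p = 0.00500) lies within Gm20388, which was not tested. Gm30505 (log2 fold change 0.58, edgeR adjusted p = 0.0336) lies opposite Ahsg, the gene of the plasma protein fetuin-A. Ahsg had a similar log2 fold change of 0.52 and was not called. The reads of Gm30505 amounted to 0.0219% of those of Ahsg. The part of reads assigned to the wrong strand in the level of Gm30505 was not tested.

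Of the 8 largest falls, Gm32468, Gm15998, C730036E19Rik and Tbx3os1 averaged under 2 CPM in AF livers and entered the list through their PF level. The deepest fall was that of Gm32468 (ENSMUSG00000111013, chr10:93084206-93093727, plus strand, 4 exons). It stood at 12.1, 3.54, 27.6, 11.9 and 15.3 CPM in the PF livers, with an AF median of 0.146 CPM and a highest AF value of 0.945 CPM. AF replicates 1 and 5 had no count, which allows up to 0.106 and 0.0981 CPM. The lowest PF liver, replicate 2, was still above every AF liver, and the mean went from 14.1 ± 8.72 to 0.356 ± 0.409 CPM (mean ± SD over 5 PF and 7 AF livers, log2 fold change -5.55, standard error 0.768, edgeR adjusted p = 2.14e-04). Cfap54, a gene of motile cilia that starts 2588 bases away in the other direction, was low in both groups and not called (log2 fold change -0.66, edgeR adjusted p = 0.142).

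1810008I18Rik (ENSMUSG00000100094, chr7:65803111-65806449, plus strand, 2 exons) was the most abundant member to fall this far. It was at 87.8, 66.8, 104, 67.5 and 88.8 CPM in PF and 10.1, 14.7 and 22.2 CPM (lowest, median, highest) in AF livers. The gap between the groups was wider than the range of either AF or PF livers alone, and the mean went from 82.98 ± 15.8 to 15.2 ± 4.09 CPM (mean ± SD over 5 PF and 7 AF livers, log2 fold change -2.76, standard error 0.234, edgeR adjusted p = 5.51e-06). Pcsk6, a proprotein convertase 55285 bases away, was not called (log2 fold change 0.41, edgeR adjusted p = 0.175).

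C730036E19Rik (ENSMUSG00000102095, chr1:151138034-151142345, plus strand, 5 exons) is listed by RefSeq under the synonym lncLSTR, a liver-enriched RNA named as a triglyceride regulator. PF livers were at 7.00, 15.5, 11.8, 9.90 and 8.56 CPM and AF livers at 0.212, 0.987 and 3.79 CPM (lowest, median, highest). All AF livers were lower than all PF livers, with means going from 10.6 ± 3.28 to 1.71 ± 1.53 CPM (mean ± SD over 5 PF and 7 AF livers, log2 fold change -2.85, standard error 0.628, edgeR adjusted p = 0.00372). Its nearest coding gene, Gm47985, had no counts.

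Gm15998 (ENSMUSG00000086389, chr3:89315439-89318907, plus strand) is antisense to Efna3, an ephrin ligand that was not tested for lack of counts. It was at 4.89, 3.58, 5.78, 4.23 and 3.80 CPM in PF and 0.146, 0.622 and 1.31 CPM (lowest, median, highest) in AF livers (log2 fold change -3.25, standard error 0.441, edgeR adjusted p = 1.88e-04), without overlap. Hectd2os (ENSMUSG00000087579, chr19:36614052-36705641, minus strand) runs antisense through Hectd2, a ubiquitin ligase gene, and 46.1% of its exonic bases lie opposite Hectd2 exons. It was at 13.4, 24.6, 11.9, 12.3 and 20.4 CPM in PF and 0.495, 3.25 and 5.02 CPM (lowest, median, highest) in AF livers (log2 fold change -2.76, standard error 0.538, edgeR adjusted p = 0.00183), with all AF livers below all PF livers. Hectd2 itself was at 2.33 ± 0.658 CPM in PF and 2.57 ± 1.41 CPM in AF livers (SD, n = 5 and 7) and was not called (log2 fold change -0.25, edgeR adjusted p = 0.464).

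A pair of intergenic members fell together with a distant coding gene. Gm31583 (ENSMUSG00000115919, chr16:24085083-24090089, minus strand) was at 13.1, 11.1, 8.22, 7.66 and 9.19 CPM in PF and 0.459, 1.97 and 7.45 CPM (lowest, median, highest) in AF livers (log2 fold change -2.21, standard error 0.636, edgeR adjusted p = 0.0149). The AF livers were widely spread but remained below the PF livers, and the transcriptional repressor Bcl6, 96231 bases away, went from 29.7 to 15.2 CPM (log2 fold change -1.32, standard error 0.344, edgeR adjusted p = 0.00913). Gm30262 (ENSMUSG00000112249, chr10:111599177-111611338, plus strand) was at 8.74, 12.3, 11.3, 8.50 and 10.4 CPM in PF and 1.59, 2.38 and 4.90 CPM (lowest, median, highest) in AF livers (log2 fold change -1.99, standard error 0.319, edgeR adjusted p = 5.65e-04), and Phlda1, a pleckstrin homology domain gene 90532 bases away, fell too (log2 fold change -1.35, standard error 0.282, edgeR adjusted p = 0.00279). Tbx3os1 (ENSMUSG00000087516, chr5:119570130-119671365, minus strand), antisense to the transcription factor gene Tbx3, was at 3.65, 6.28, 4.43, 3.01 and 3.33 CPM in PF and 0.318, 0.752 and 3.27 CPM (lowest, median, highest) in AF livers (log2 fold change -1.94, standard error 0.524, edgeR adjusted p = 0.0110). Its groups overlapped in CPM but not after TMM scaling, and Tbx3 was not called (log2 fold change -0.56, edgeR adjusted p = 0.285).

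**Figure D3:**
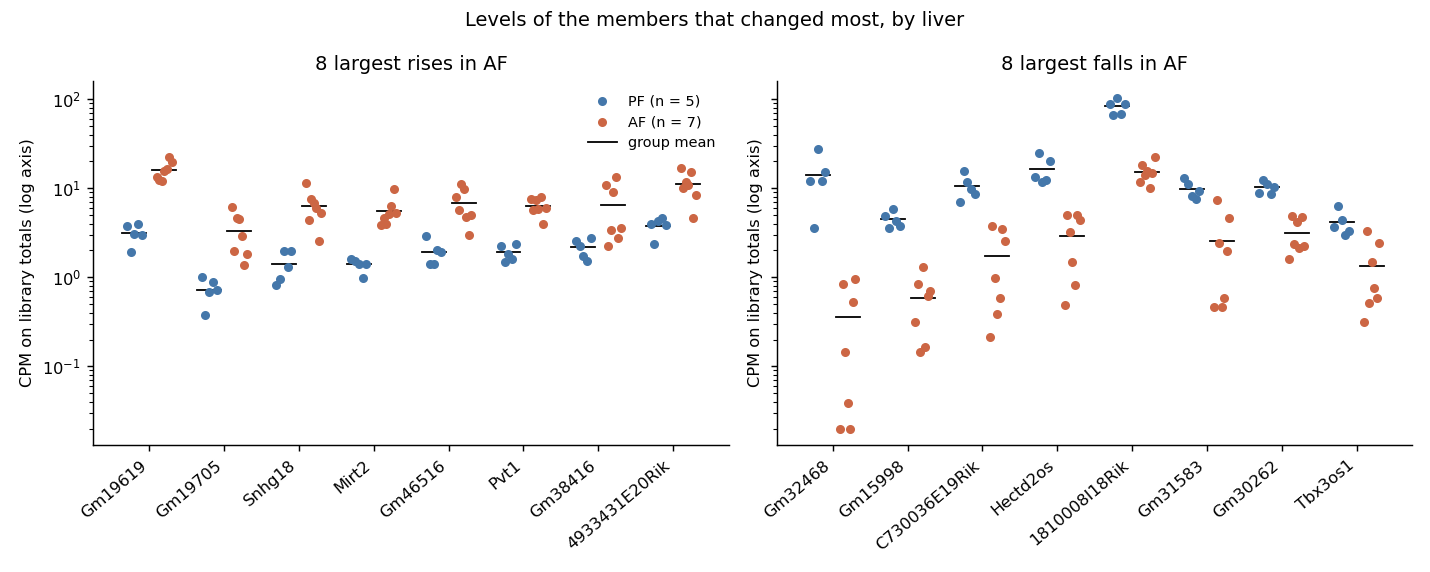
CPM on library totals (vertical log axis) of the 8 members that rose most (left) and the 8 that fell most (right), 1 point per liver for 5 PF and 7 AF livers, with black lines at the group means and values of 0 drawn at 0.02. Only Gm38416 among the rises and Tbx3os1 among the falls show overlapping groups on this scale.

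The 51 lower members had a median log2 fold change of -1.14. Beside those named above, Gm44421, 9430037G07Rik, Gm15343, Gm13522 and Gm16124 averaged under 2 CPM in AF livers and entered through their PF level. Beyond the 8 largest falls, several lie opposite coding genes. Gm20319 went from 60.6 ± 3.40 to 32.98 ± 9.96 CPM (mean ± SD over 5 PF and 7 AF livers, log2 fold change -1.19, edgeR adjusted p = 0.00240). It is antisense to Il1rap, the accessory chain of the interleukin-1 receptor, which fell to a similar extent (log2 fold change -1.07, edgeR adjusted p = 0.00529). Without strand-specific counting the reads of such a pair could not be told apart, and 49.1% of the exonic bases of Gm20319 lie opposite exons of Il1rap. Gm16548 (log2 fold change -1.35, edgeR adjusted p = 6.99e-04) lies opposite F5, the gene of coagulation factor V, which was not called (log2 fold change -0.28, edgeR adjusted p = 0.138), and 0610031O16Rik (log2 fold change -1.63, edgeR adjusted p = 7.77e-04) lies opposite Adh7, an alcohol dehydrogenase gene that was not called (log2 fold change -0.33, edgeR adjusted p = 0.357). Prox1os (log2 fold change -0.84, edgeR adjusted p = 0.00488) fell with Prox1, a hepatocyte transcription factor (log2 fold change -0.45, edgeR adjusted p = 0.0417). Gm42604 (log2 fold change -1.24, edgeR adjusted p = 0.00744) fell with Fras1, an extracellular matrix gene (log2 fold change -2.49, edgeR adjusted p = 9.00e-06), and Gm13522 (log2 fold change -0.91, edgeR adjusted p = 0.00385) with Neb, the gene of nebulin (log2 fold change -1.47, edgeR adjusted p = 3.18e-04).

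Other lower members lay beside liver genes without overlapping them. Gm44421 (log2 fold change -1.46, edgeR adjusted p = 0.00123) lies 3228 bases from Klf15, a fasting-related transcription factor of the liver, which fell as well (log2 fold change -1.18, edgeR adjusted p = 5.97e-04). B630019A10Rik, which went from 48.7 ± 5.72 to 28.3 ± 11.3 CPM (mean ± SD over 5 PF and 7 AF livers, log2 fold change -1.07, edgeR adjusted p = 0.0161), lies 294 bases from St6gal1, a sialyltransferase gene that fell (log2 fold change -0.54, edgeR adjusted p = 0.0218). 9030622O22Rik (log2 fold change -1.22, edgeR adjusted p = 9.18e-04) lies 2674 bases from Foxa2, a hepatocyte transcription factor that was not called (log2 fold change -0.31, edgeR adjusted p = 0.238). Gm48633 (log2 fold change -1.16, edgeR adjusted p = 0.0216) lies 27587 bases from Apob, the apolipoprotein B gene, which was not called (log2 fold change -0.29, edgeR adjusted p = 0.254). The symbol C730027H18Rik names a pair of overlapping IDs on chromosome 10 that were both lower (-0.98 and -0.72, edgeR adjusted p = 0.0149 and 0.0447), so their reads are uncertain.

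A list of nuclear lncRNAs together with 2900097C17Rik (Norad), which is not taken as nuclear here, holds several of the members with the most reads. Of 5 tested on this list 1 was higher and 1 was lower. For this and the following lists, 22% of all genes were higher and 17.8% were lower. Neat1 (ENSMUSG00000092274, chr19:5824708-5845478, minus strand), the scaffold of nuclear paraspeckles, was at 91.6, 70.8, 102, 76.6 and 122 CPM in PF and 93.7, 174 and 222 CPM (lowest, median, highest) in AF livers. The lowest AF liver lay within the PF range, and the mean went from 92.7 ± 20.7 to 168 ± 47.98 CPM (mean ± SD over 5 PF and 7 AF livers, log2 fold change 0.47, standard error 0.150, edgeR adjusted p = 0.0254). The call was lost without PF replicate 2 (0.39) and without PF replicate 4 (0.39). Frmd8, a FERM domain gene 4224 bases away on the same strand, was not called (log2 fold change 0.13, edgeR adjusted p = 0.489).

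Malat1 (ENSMUSG00000092341, chr19:5795690-5802672, minus strand), an RNA of nuclear speckles, was at 109, 149.7, 128, 147 and 137 CPM in PF and 79.8, 214 and 307 CPM (lowest, median, highest) in AF livers. AF livers spread from below to above the PF livers, and the difference was not called (log2 fold change 0.24, standard error 0.203, edgeR adjusted p = 0.371), although it was on library totals (0.62, edgeR adjusted p = 0.0449) and with a replicate block over replicates 1 to 5 (0.33). Tug1, antisense to Morc2a, was at 43.1, 39.2, 58.3, 50.3 and 49.95 CPM in PF and 28.1, 52.4 and 64.3 CPM (lowest, median, highest) in AF livers. The groups overlapped throughout, the call of lower (log2 fold change -0.35, standard error 0.119, edgeR adjusted p = 0.0325) turned on the scaling, and on library totals the fold change was 0.02. The call was also lost with upper-quartile normalization, with the replicate block (-0.26), with a filter at 1 count in any library (-0.34) and without AF replicate 1 or 7 or PF replicate 3, 4 or 5 (-0.29 to -0.35).

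2900097C17Rik (ENSMUSG00000102869, chr2:156388065-156392979, minus strand), which RefSeq names Norad, binds Pumilio proteins and guards genome stability. It was at 138, 143, 119, 139 and 145 CPM in PF and 126, 174 and 197 CPM (lowest, median, highest) in AF livers and was not called (log2 fold change -0.10, standard error 0.0809, edgeR adjusted p = 0.331). Cnbd2, 12427 bases away, was not called (log2 fold change 0.31, edgeR adjusted p = 0.345). Kcnq1ot1, an imprinted antisense RNA that silences genes of its cluster, was at 0.829, 1.75, 2.14, 2.55 and 1.70 CPM in PF and 1.54, 2.16 and 3.07 CPM (lowest, median, highest) in AF livers and was not called (log2 fold change -0.08, edgeR adjusted p = 0.809). Kcnq1, the potassium channel gene it runs through, was higher (log2 fold change 1.30, edgeR adjusted p = 0.00735). Of 14 coding genes of paraspeckle proteins 2 were lower, Cpsf6 (log2 fold change -0.39, edgeR adjusted p = 0.0207) and Nudt21 (log2 fold change -0.35, edgeR adjusted p = 0.00188), both subunits of a cleavage factor that selects poly(A) sites. DESeq2 called 4 of the 14 lower and limma-voom 5. On library totals neither Cpsf6 nor Nudt21 was called and both were near 0 (log2 fold change -0.01 and 0.01).

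Hosts of snoRNAs carry these guides of RNA modification in their introns. Of 17 host genes tested, 4 were higher by edgeR, against 22% of all genes, and the others were not called. The median log2 fold change was 0.20. Only 3 of the hosts are members. Beside Snhg18, Snhg12 was at 4.77, 4.83, 4.28, 3.81 and 4.32 CPM in PF and 5.16, 7.18 and 9.64 CPM (lowest, median, highest) in AF livers. Every AF liver was above every PF liver in CPM on library totals, but the groups overlapped after TMM scaling and the fold change was not called (log2 fold change 0.38, standard error 0.203, edgeR adjusted p = 0.149) except on library totals (0.71, edgeR adjusted p = 0.00647). Trnau1ap, 739 bases away, was not called (log2 fold change 0.17, edgeR adjusted p = 0.222). Snhg6 was at 5.97, 4.15, 4.77, 4.72 and 5.98 CPM in PF and 5.80, 6.75 and 8.40 CPM (lowest, median, highest) in AF livers (log2 fold change 0.06, standard error 0.139, edgeR adjusted p = 0.735), and was called only on library totals (0.41, edgeR adjusted p = 0.0335). It overlaps Mcmdc2, which was not tested.

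The other 3 higher hosts were below the level of the rule or carry another biotype, namely 2410006H16Rik (log2 fold change 1.21, edgeR adjusted p = 7.50e-04), Snhg15 (log2 fold change 1.20, edgeR adjusted p = 0.00419) and Snhg20 (log2 fold change 0.58, edgeR adjusted p = 0.0281). Gas5, the most abundant host, was not called (log2 fold change -0.05, edgeR adjusted p = 0.819). Of 11 coding genes of the core snoRNA particle, Nop56 (log2 fold change 0.47, edgeR adjusted p = 0.0234), Nop58 (log2 fold change 0.51, edgeR adjusted p = 0.0170), Nhp2 (log2 fold change 0.31, edgeR adjusted p = 0.0384) and Gar1 (log2 fold change 0.38, edgeR adjusted p = 0.0466) were higher, and Dkc1 (log2 fold change -0.41, edgeR adjusted p = 0.0158) and Nop10 (log2 fold change -0.36, edgeR adjusted p = 0.00814) were lower. Host RNAs are degraded by nonsense-mediated decay, and of 15 genes of that pathway 2 were higher, Upf1 (log2 fold change 0.24, edgeR adjusted p = 0.0493) and Smg5 (log2 fold change 0.32, edgeR adjusted p = 0.0162), and 1 was lower, Smg6 (log2 fold change -0.24, edgeR adjusted p = 0.0198). For the decay genes DESeq2 called 1 higher and 3 lower, and limma-voom 3 higher and 4 lower. On library totals Dkc1 (log2 fold change -0.04), Nop10 (-0.01) and Smg6 (0.12) were not called, and the sign of Smg6 turned. By position, 5 members contain a snoRNA or a related small RNA on their strand and 3 contain a microRNA, 7 members in all, of which Snhg18 was higher, 9430037G07Rik (log2 fold change -0.93, edgeR adjusted p = 0.0218) was lower and the other 5 were not called.

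Imprinted lncRNAs are expressed from a single parental copy, and of 6 tested 2 were higher, against 22% of all genes, and the others were not called. Both higher genes were outside the members, Airn (log2 fold change 1.66, edgeR adjusted p = 0.00222) for its low level and Peg13 (log2 fold change 0.41, edgeR adjusted p = 0.0325) for its biotype. Meg3, a maternally expressed RNA that contains microRNAs, was at 1.74, 2.05, 0.563, 0.630 and 1.03 CPM in PF and 0.169, 2.30 and 9.47 CPM (lowest, median, highest) in AF livers. AF replicate 1 alone set the upper end, and the fold change of 0.70 (edgeR adjusted p = 0.403) was 0.09 without that liver. Its nearest coding gene Rtl1 was not tested. Of 5 hosts of microRNAs tested, 1 was lower by edgeR, Dleu2 (log2 fold change -0.78, edgeR adjusted p = 0.00270), which carries another biotype and is not a member. DESeq2 called 1 higher and 2 lower, and limma-voom called 3 lower.

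Of 13 lncRNAs chosen for earlier work in liver or cell stress, 3 were higher and 3 were lower, against 22% and 17.8% of all genes. Of these, 1700020I14Rik was matched through its RefSeq name Oip5os1, and its call of lower was lost on library totals. Pvt1 was the higher member of these. Trp53cor1, also known as lincRNA-p21 (log2 fold change 2.71, edgeR adjusted p = 0.0195), and Bvht (log2 fold change 0.91, edgeR adjusted p = 0.0171) were the other two that were higher, both below the level of the rule. Gm16551 (log2 fold change -2.26, edgeR adjusted p = 1.60e-04) was among the lower ones and is not a member.

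AW112010 (ENSMUSG00000075010, chr19:11047612-11055808, minus strand), a transcript known to be induced in inflammation, was at 151, 143, 163, 141 and 194 CPM in PF and 84.4, 143 and 235 CPM (lowest, median, highest) in AF livers. Its AF livers spread to both sides of the PF livers, and it was not called (log2 fold change -0.45, standard error 0.255, edgeR adjusted p = 0.174) except without AF replicate 2 (-0.65). Ms4a8a, a membrane protein gene 11663 bases away, was not called (log2 fold change -0.44, edgeR adjusted p = 0.377). Per kilobase of exon it was the second of the members at 187 CPM, after Gm42418 at 1359 CPM and before Gm20186 at 123 CPM, while 2900097C17Rik was at 31.1, Malat1 at 25.2, AC160336.1 at 7.05 and Neat1 at 6.57 CPM per kilobase.

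The members with the most reads have unusual annotations. Gm42418 (ENSMUSG00000098178, chr17:39846958-39848788, plus strand, 1 exon) is listed by RefSeq as Rn18s-rs5, a pseudogene related to ribosomal RNA, and 99.5% of it lies opposite exons of AY036118 and CT010467.1. It was at 3376, 2511, 1885, 1539.5 and 2306 CPM in PF and 1518, 2681 and 3466 CPM (lowest, median, highest) in AF livers and was not called (log2 fold change -0.16, standard error 0.287, edgeR adjusted p = 0.683). Its AF range covered the whole PF range, and its nearest coding gene Esp38 had no counts. AC160336.1 (ENSMUSG00000115801, chr14:44544055-44637201, minus strand, 1 exon) spans 93147 bases and holds several other annotated genes. PF livers were at 449.9, 524, 464, 521 and 421 CPM and AF livers at 569.7, 776 and 974 CPM (lowest, median, highest), with no overlap on library totals and an overlap after TMM scaling. The TMM fold change was not called (log2 fold change 0.38, standard error 0.173, edgeR adjusted p = 0.0932), and on library totals it was 0.72 (edgeR adjusted p = 0.00196). Upper-quartile normalization called it too, at 0.43.

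Gm20186 (ENSMUSG00000106874, chr6:18845910-18848207, minus strand) starts 372 bases from Lsm8, a subunit of the U6 small nuclear RNA particle, and 81.4% of its exonic bases lie opposite Gm26809. It was at 58.2, 87.5, 100.4, 129.7 and 90.4 CPM in PF and 96.1, 159.5 and 213 CPM (lowest, median, highest) in AF livers and was not called (log2 fold change 0.39, standard error 0.205, edgeR adjusted p = 0.146) except on library totals (0.73, edgeR adjusted p = 0.0112). Lsm8 was not called (log2 fold change 0.02, edgeR adjusted p = 0.924).

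Members took different positions beside coding genes. The nearest coding gene overlapped on the opposite strand for 62 members and on the same strand for 5, started in the other direction within 5 kb for 17, lay on the same strand within 5 kb for 16, lay otherwise within 5 kb for 4, and was farther away for 47. Of the 17 divergent members 1 was higher and 3 were lower, of the 62 on the opposite strand 5 were higher and 23 were lower, and of the 47 distant ones 7 were higher and 17 were lower. Of the 16 on the same strand within 5 kb 1 was higher and 6 were lower, of the 5 overlapping on the same strand 2 were higher and 3 were not called, and of the 4 otherwise within 5 kb 2 were lower and 2 were not called. Among all genes tested 22% were higher and 17.8% were lower. No test of the difference between these positions was made. Among the 72 members without any exonic base in an exon of another gene, 9 were higher (12.5%) and 22 were lower (30.6%).

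The neighbour was tested for 129 members. Beside the 41 lower members with a tested neighbour, 18 neighbours were lower (43.9%, against 17.3% of coding genes) and 6 were higher (14.6%, against 23.1%). Beside 14 higher members, 4 neighbours were higher (28.6%) and 3 were lower (21.4%). Beside 74 members that were not called, 14 neighbours were lower (18.9%) and 11 were higher (14.9%). In all, 22 of 55 called members had a neighbour called the same way and 9 had one called the opposite way. The same direction was found for 10 of 20 distant members, 8 of 22 overlapping antisense members, 3 of 7 on the same strand within 5 kb and 1 of 4 divergent ones. Where the spans overlap, the counts of member and neighbour also share a place, and this was not tested further.

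Opposite directions were seen for 6 lower members. Oip5, a centromere protein gene, rose (log2 fold change 1.72, edgeR adjusted p = 0.0108) while 1700020I14Rik, the RNA also known as Cyrano, was lower (log2 fold change -0.32, edgeR adjusted p = 0.0168) but was not called on library totals, where its sign turned (0.05). Treh, the trehalase gene, rose (log2 fold change 1.10, edgeR adjusted p = 0.0485) beside BC049987 (log2 fold change -1.07, edgeR adjusted p = 0.0227). Bicc1, an RNA-binding protein gene, rose (log2 fold change 1.89, edgeR adjusted p = 0.0174) beside both IDs of C730027H18Rik, Ptpn9 rose (log2 fold change 0.85, edgeR adjusted p = 3.22e-04) opposite Gm10658 (log2 fold change -1.19, edgeR adjusted p = 6.30e-04), and Bace1 rose (log2 fold change 0.30, edgeR adjusted p = 0.0281) opposite Gm16536 (log2 fold change -0.58, edgeR adjusted p = 0.00692). On library totals BC049987, 1 of the IDs of C730027H18Rik and Gm16536 were not called, and neither were the lower neighbours Akap13 (log2 fold change -0.12), Map3k13 (-0.26), Prox1 (-0.12) and St6gal1 (-0.21). Some neighbours rose beside members with a fold change near 0, such as Samd4 (log2 fold change 2.03, edgeR adjusted p = 7.96e-06), which starts 97 bases from Gm34934 (log2 fold change -0.01, edgeR adjusted p = 0.977), and Tagln, a smooth muscle gene (log2 fold change 1.44, edgeR adjusted p = 0.0160), opposite Gm48529 (log2 fold change -0.05, edgeR adjusted p = 0.823).

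**Figure D4:**
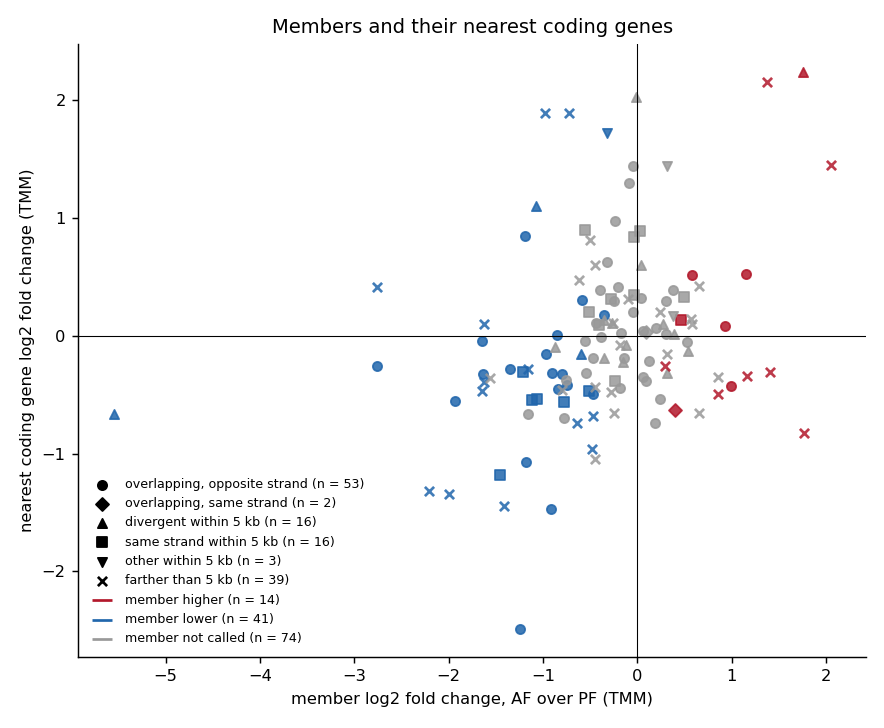
Log2 fold change of the nearest coding gene (vertical axis) against that of the member (horizontal axis), AF over PF after TMM scaling, for the 129 members whose neighbour was tested. Colour gives the member's call and the symbol its position, and among the 41 lower members 18 neighbours were lower and 6 were higher.

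The AF livers did not all move equally. Relative to the PF mean, the median log2 level of the 16 higher members was 1.31 in AF replicate 1, 0.86 in replicate 2, 1.09 in replicates 3 and 4, 1.10 in replicate 5, 0.65 in replicate 6 and 0.93 in replicate 7. For the 51 lower members the medians were -1.82, -0.62, -1.25, -1.19, -1.50, -1.06 and -0.79 in the same order. AF replicate 1 was the lowest AF liver for 27 of the 51 lower members, and replicates 2, 6 and 7 were the highest for 15, 12 and 14 of them. Among the 84 uncalled members AF replicates 1 and 6 were the lowest for 27 and 28, and replicates 2, 6 and 7 were the highest for 18, 20 and 21. AF replicate 1 also had the highest TMM factor (1.36). The PF medians of both sets lay between -0.28 and 0.16. As the members were called from the same livers, this is a description.

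**Figure D5:**
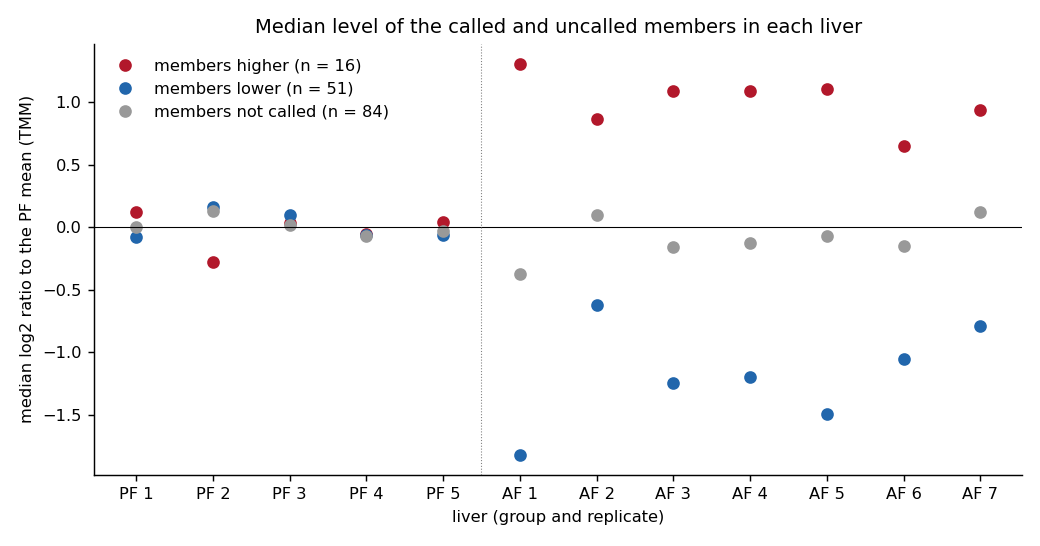
Median log2 ratio to the PF mean after TMM scaling (vertical axis) in each of the 12 livers (horizontal axis) for the 16 higher, 51 lower and 84 uncalled members. The 7 AF livers lie between 0.65 and 1.31 for the higher members and between -1.82 and -0.62 for the lower ones.

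Because 60 members are antisense, the strand of the counts matters. The library kit named in the labels keeps the strand. Of 453 genes whose exons lie wholly within exons of another gene on the opposite strand, 136 had counts (30.0%), against 41 of 693 (5.92%) for those within exons on the same strand, where reads are ambiguous. Pdcd2, of which 100% lies opposite other exons, had 3778 counts. Of the 60 antisense members 5 were higher (8.33%) and 22 were lower (36.7%), and of the 91 lincRNAs 11 were higher (12.1%) and 29 were lower (31.9%). Among all genes tested 22% were higher and 17.8% were lower, and the difference between the biotypes was not tested.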

How the data were processed

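Whole liver RNA was enriched for poly(A) RNA and made into stranded libraries by the authors, which leaves RNAs without a poly(A) tail underrepresented. Raw counts of 5 PF and 7 AF livers were deposited by Ensembl gene ID, assigned here to samples by column name. The submitters' processing notes name FastQC 0.10.1, TopHat2 2.0.13, HTSeq 0.10.0 and the build GRCm38. The annotation and the strand setting of the counting are not given in the sources used here, and GENCODE M21 was used for names, biotypes and positions.

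CPM values are counts over the library total. Counts were filtered with filterByExpr, scaled with TMM and tested with the quasi-likelihood test of edgeR 4.0.16 in R 4.3.3, comparing AF with PF and no other term, and p-values were adjusted by Benjamini-Hochberg over all 14168 genes tested. All 151 members passed the filter. Exon overlaps came from bedtools 2.31.1. The 31 pairs of libraries within groups differed by at least 21.1 times the counting noise. On simulated counts of 13981 genes, edgeR recovered 64 of 97 genes changed by 1 and 92 of 96 changed by 2 on the log2 scale, with 13 false calls. The limit that a count of 0 allows is 3 counts at a confidence of 95%, and it covers counting error only.

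The members and lists were chosen with earlier results of these data known. Named members were the 8 largest called changes in each direction, the 6 with the most reads, the 6 uncalled members with the most reads and those on lists of known roles, each with its nearest coding gene, apart from a few genes that are not reported here. Other members and neighbours named as examples were chosen after their values were seen. Alternatives were DESeq2 1.42.0, limma 3.58.1 with voom and quality weights, other normalizations and filters, a replicate block, each library left out and other rules for the members.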

Additional observations from a re-analysis of the deposited data

Results flagged for a closer look

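In 3 of 58 groups of values of the named members (29 members in 2 groups of livers), 1 liver lay farther from the rest than Dixon's 95% limit allows, where chance gives about 2.9. 2900097C17Rik (Norad) was at 119 CPM in PF replicate 3, below the other PF livers. Mirt2 was at 9.83 CPM in AF replicate 6, above the other AF livers, and its fold change was 1.42 without that liver and 1.71 with it. Meg3 was at 9.47 CPM in AF replicate 1, above the other AF livers, and its fold change was 0.09 without that liver and 0.70 with it.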

How the results depend on the processing

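In 21 alternative fits of the 29 named members, 576 values kept their direction and their side of the threshold, 18 lost the call and 8 gained one. A call turned its sign once, for Tug1, which was 0.021 on library totals. Another 6 values, of the uncalled Gm42418, 2900097C17Rik and Kcnq1ot1, changed sign without a call. The cause was not tested. Of the 16 higher members 10 were called in each of these fits, the replicate block included, and of the 51 lower members 34. On library totals 36 members were higher, and all genes gave 6452 higher and 939 lower. The neighbours called the same way as their member were 35 with limma-voom and quality weights and 12 within 5 kb, against 22. With each library left out in turn, 10 to 18 members were higher, with 10 without PF replicate 2, and 44 to 58 were lower, 56 to 76 in all. Other rules change how many lncRNAs enter, and among all genes tested 22% were higher and 17.8% lower. The 266 with a mean of at least 1 CPM gave 102 calls (26 or 9.77% higher, 28.6% lower). The 72 with at least 5 CPM gave 36 (7 or 9.72% higher, 29 or 40.3% lower). The 118 with at least 2 CPM in each group gave 9 higher (7.63%, with 35.6% lower). The 72 members without exon overlap gave 31 calls (9 or 12.5% higher, 22 or 30.6% lower). The 91 lincRNAs alone gave 40 (12.1% higher, 29 or 31.9% lower). With a replicate block over replicates 1 to 5, 18 members were higher and 65 lower, 83 in all, of which 14 and 48 were among those called without it. Deviations of livers with the same number correlated between -0.075 and 0.117, and 2 of 5 matched their own number best, so the numbers were not taken as pairs.

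Many members had few counts, since 79 of 151 lay between 2 and 5 CPM, and AF livers of Gm32468 reached 0 counts. Of the members under 10 CPM 9.65% were higher and 34.2% lower, against 13.5% and 32.4% of those from 10 CPM. Thinned to the smallest library, 67 members were called, as many as in the main fit, and lower depths were not tested. Groups of 5 and 7 livers limit small changes, and the simulation recovered 64 of 97 genes changed by a log2 size of 1. It changed far fewer genes than were called in these data and drew them at any level. Its recovery is therefore not a measure for the members.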
